A study of Mus musculus with 2 samples.

Results

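The canonical histone genes of the mouse lie in clusters, and 67 of the 21911 protein-coding genes in the GENCODE annotation of mouse build mm10 were taken as their members because their symbols begin with Hist1h, Hist2h, Hist3h or Hist4h. They encode 6 linker histones H1, 18 histones H2A, 18 histones H2B, 12 histones H3 and 13 histones H4. The Hist1 cluster on chromosome 13 holds 54 of them, Hist2 on chromosome 3 holds 10, Hist3 on chromosome 11 holds 2 and Hist4 on chromosome 6 holds 1. Chromatin opening at these genes was measured by DNase-seq, which sequences the ends of DNA cut by DNase I in nuclei, in gastrocnemius, a calf muscle. Both libraries came from male B6CASTF1/J mice aged 14 days, an F1 cross between C57BL/6J and the wild-derived CAST/EiJ strain. They form 1 group with no contrast, and values are given in the order replicate 1 and replicate 2. Both libraries name the same donor entry, and the labels carry an unexplained mention of 3x Males, so the spread between them may be technical.

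Clustered histone genes are copied out during S phase, when new DNA needs new nucleosomes. H2A, H2B, H3 and H4 form the core of the nucleosome and H1 binds the linker DNA. The genes lack introns, and most of their mRNAs end in a stem-loop in place of a poly(A) tail. NPAT gathers at the clusters in nuclear bodies and drives their transcription, together with NF-Y at CCAAT boxes, OCT1 at the octamer of many H2B promoters and HINFP at an element of H4 promoters. Muscle fibre nuclei have left the cell cycle, while satellite cells, fibroblasts and endothelial cells of young muscle can still divide.

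The element of the H4 promoters, with the core GGTCCG, lay under a footprint in many H4 genes. A footprint is a short stretch within an open site that escaped cutting. The RefSeq sequences (GRCm38.p6) of the 60 bases before the annotated start are shown for 8 H4 genes because the same core stands in each, in 5 under a footprint in both libraries and in 3 not so covered in either. The first 5 are Hist1h4c (chr13:23698459-23698518, minus strand), Hist1h4d (chr13:23581508-23581567, plus strand), Hist1h4i (chr13:22041363-22041422, minus strand), Hist1h4k (chr13:21750554-21750613, minus strand) and Hist4h4 (chr6:136804432-136804491, minus strand). The other 3 are Hist1h4f (chr13:23551669-23551728, minus strand), Hist1h4j (chr13:21734974-21735033, plus strand) and Hist1h4m (chr13:21811686-21811745, plus strand). The cores of Hist1h4f and Hist1h4j lay in peaks of both libraries. That of Hist1h4m lay in no strict peak of either and in duplicated sequence, so its lack of a footprint is not comparable. They are written 5′ to 3′ on the gene's strand, and capitals mark the core GGTCCG and the TATA box TATAAA.
Hist1h4c: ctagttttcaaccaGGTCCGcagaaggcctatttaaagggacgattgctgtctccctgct
Hist1h4d: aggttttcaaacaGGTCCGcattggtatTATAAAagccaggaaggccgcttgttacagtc
Hist1h4i: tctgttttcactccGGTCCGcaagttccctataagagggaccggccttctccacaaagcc
Hist1h4k: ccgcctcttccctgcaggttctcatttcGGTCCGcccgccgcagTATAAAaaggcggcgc
Hist4h4: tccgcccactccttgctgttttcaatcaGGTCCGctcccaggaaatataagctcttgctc
Hist1h4f: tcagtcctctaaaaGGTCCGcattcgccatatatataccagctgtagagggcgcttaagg
Hist1h4j: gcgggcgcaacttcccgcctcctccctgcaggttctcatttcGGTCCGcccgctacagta
Hist1h4m: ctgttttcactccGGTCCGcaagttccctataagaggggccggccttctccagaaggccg

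H2A and H2B genes stood in 12 divergent pairs that share the DNA between them. Promoter sequences of 3 such pairs are shown: Hist1h2an/Hist1h2bp, whose peak was the strongest of all pairs, Hist1h2ah/Hist1h2bk, which holds an octamer, and the pair of the testis variants Hist1h2ba/Hist1h2aa, which had no peak. For the first pair all 239 bases between the RefSeq starts are given (chr13:21787249-21787487, plus strand, Hist1h2bp downstream), and for the second all 177 bases (chr13:22035644-22035820, plus strand, Hist1h2bk downstream). For the third, 250 bases before the start of Hist1h2ba are given (chr13:23934157-23934406, minus strand). Capitals mark, on either strand, CCAAT, the TATA box TATAAA and the octamer ATTTGCAT.
Hist1h2an/Hist1h2bp: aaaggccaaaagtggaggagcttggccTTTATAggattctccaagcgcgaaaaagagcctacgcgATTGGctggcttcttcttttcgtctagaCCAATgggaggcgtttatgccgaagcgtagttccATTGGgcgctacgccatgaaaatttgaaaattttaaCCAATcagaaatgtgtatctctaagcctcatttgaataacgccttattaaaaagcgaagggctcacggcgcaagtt
Hist1h2ah/Hist1h2bk: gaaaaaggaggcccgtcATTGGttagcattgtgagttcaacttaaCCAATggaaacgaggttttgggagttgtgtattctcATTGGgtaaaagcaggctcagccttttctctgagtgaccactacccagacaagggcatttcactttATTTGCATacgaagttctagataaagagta
Hist1h2ba: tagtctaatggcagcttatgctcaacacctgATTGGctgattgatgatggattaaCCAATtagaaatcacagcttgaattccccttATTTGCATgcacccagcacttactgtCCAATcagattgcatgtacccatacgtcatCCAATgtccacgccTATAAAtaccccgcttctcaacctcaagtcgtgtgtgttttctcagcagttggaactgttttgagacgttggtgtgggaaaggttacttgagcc

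Most clustered histone promoters were open in this muscle. A promoter was called open where a peak of the strict deposited list lay within 1 kb of an annotated start in both libraries, and 53 of 67 members (79.1%) were open, against 61.7% of all protein-coding genes. One further member was open in replicate 1 alone, 3 in replicate 2 alone and 10 in neither. The permissive list, which holds more and weaker peaks, gave 57 members open in both libraries, against 65.7% of all genes, and 250 bases in place of 1 kb gave 50 members, against 58.6%. Because some annotated starts lay far from the coding sequence, the window was also set around the start codon. There 54 members were open, against 43.4% of 21626 genes with a start codon. This window leaves out starts further than 1 kb from the start codon. By it 9388 of all genes were open, against 13512 by annotated starts, so the 2 shares of all genes are not alike. No test was run on these shares, since members were chosen as a family and neighbouring members share peaks. In this mixed tissue, fewer cells with an open promoter and less opening per cell cannot be told apart.

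The open promoters were weaker than most. The signal, column 7 of the deposited peak lists, is the authors' own strength of each peak, and the sources used here do not give its scale. The strongest promoter peak of the open members had a median signal of 2.69 and 2.33, against 6.15 and 3.51 for all open genes. Among open genes the median member stood at the 25.3rd and 35.5th percentile, where all open genes had a median of 51.4 in either library. Among all genes, closed ones tied at the bottom, the median of the members' mean percentile was 52.9 ± 4.73 (SD of the 2 libraries' medians). For all genes it was 50.1, a value that the ranking itself sets near the middle.

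The files give no read counts, so the depth is unknown; the strict lists held 82498 and 88198 peaks and the footprint lists 320456 and 384435 footprints. Of 10 skeletal muscle marker genes 9 were open in both libraries, and Mb, which encodes myoglobin, had a promoter peak of 2.88 in replicate 1 and none in replicate 2. Among markers of other cells, 3 of 3 fibroblast genes were open in both libraries, 2 of 3 endothelial, 2 of 3 Schwann cell, 1 of 3 leukocyte, 1 of 3 erythroid and 1 of 3 germ cell genes. The leukocyte gene Ptprc and the erythroid genes Gata1 and Klf1 had no strict peak in either library, and Klf1 had a permissive peak of 0.708 in replicate 1.

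**Figure D1:**
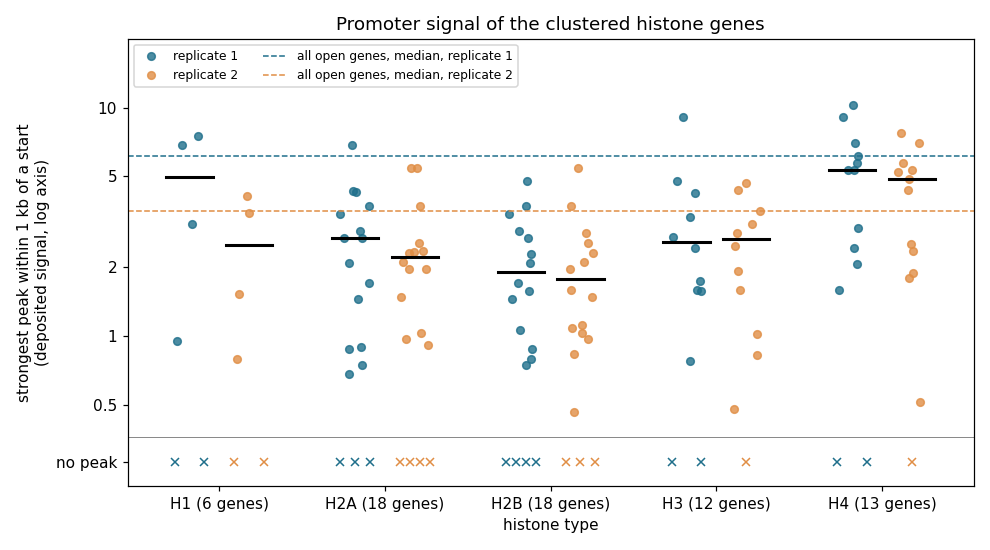
Deposited signal of the strongest peak within 1 kb of a start (log axis) for each gene, by histone type and library. Points are genes, crosses are genes without a peak in that library, bars are medians over genes open in both libraries, and dashed lines are the medians of all open genes. H4 genes have the highest and H2B genes the lowest median in both libraries.

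Histone H4 genes had the strongest promoters of the 5 types. Of 13 H4 genes, 11 were open in both libraries, with a median signal of 5.34 and 4.89, against 6.15 and 3.51 for all open genes. Over all 13 the median of the mean percentiles was 72.9 ± 7.64. Hist1h4c had the highest signal of any member in replicate 1, with 10.2 in replicate 1 and 6.97 in replicate 2, at a percentile of 88.2 ± 6.11 (SD, n = 2). Hist4h4, the lone gene of the Hist4 cluster, was the strongest member in replicate 2, with 6.16 and 7.75 (82.2 ± 18.4). Hist1h4a had 9.11 and 4.35, from a peak centred at -253.5 and -263.5 bases from its start codon, where negative is upstream. The H4 gene of the Hist2 cluster, Hist2h4, had 5.34 and 5.34. At the other end, Hist1h4j had 1.58 and 2.53, and within 250 bases of its start codon 1.09 and 0.890. Hist1h4m had a strict peak of 0.514 in replicate 2 only and a permissive peak of 0.440 in replicate 1. Hist1h4n had no strict peak in either library and a permissive peak of 0.229 in replicate 2. H4 pairs with H3 in the centre of the nucleosome, and the promoters of its genes thus ranged from among the strongest of the members to no strict peak.

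H1 linker histone genes split into open and closed members. Of 6 genes, 4 were open, with a median signal of 4.97 and 2.50. Hist1h1e had 6.87 and 4.11 and Hist1h1a had 3.08 and 1.53. Hist1h1c, whose mRNA is also made with a poly(A) tail in differentiated cells, had 7.51 and 3.46. Its strongest peak in replicate 1 lay more than 250 bases from the start codon, and within 250 bases of the start codon the signal was 4.15 and 3.46. Hist1h1t, the linker histone of spermatocytes, had no strict peak, a permissive peak of 0.468 in replicate 1 and none in replicate 2. Hist1h1d was closed by the annotated start, which GENCODE places 1828 bases from the start codon, but had a peak of 1.52 and 1.07 around the start codon.

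H3 genes were open in 10 of 12 cases, with a median signal of 2.56 and 2.66. Hist1h3e had 4.22 and 4.66. Hist2h3b had 4.77 and 2.84 from the peak at its neighbour Hist2h2bb, and within 250 bases of its own start codon 2.31 and 1.98. Hist1h3a ranked first among H3 genes, with 9.11 and 4.35, but this was the peak of its neighbour Hist1h4a, and within 250 bases of its own start codon the signal was 0.864 and 0.881. In 10 of the 53 open members the strongest peak of at least 1 library lay more than 250 bases from the start codon, whether at a neighbour or elsewhere. Hist1h3d had a strict peak of 0.826 in replicate 2 alone and a permissive peak of 0.591 in replicate 1. Hist2h3c2 had 1.59 and 0.477, and Hist2h3c1 had no peak in either list of either library.

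H2B genes had the lowest median signal of the 5 types in both libraries, and H2A genes were above H3 genes in replicate 1 and below them in replicate 2. Of 18 genes each, 14 H2A and 14 H2B genes were open, with median signals of 2.69 and 2.21 for H2A and 1.90 and 1.78 for H2B. Hist2h2aa2 led the H2A genes with 6.87 and 5.42, and its neighbour copy Hist2h2aa1 had 4.28 and 2.33. Hist1h2ag and its partner Hist1h2bj shared a peak of 2.89 and 3.72, and Hist1h2ac and its partner Hist1h2bc one of 1.71 and 2.31. Hist1h2bc, like Hist1h1c, also makes polyadenylated mRNA in differentiated cells, and its promoter was below the H2B median in replicate 1 and above it in replicate 2. Hist1h2ab had 0.680 in replicate 1 alone, with a permissive peak of 0.376 in replicate 2.

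In the Hist2 cluster 9 of 10 genes were open. Hist2h2ab, Hist2h2ac and Hist2h2be had the same strongest peak, of 2.69 and 1.97, though within 250 bases of its start codon Hist2h2ab had 1.73 and 1.40. Hist2h2bb had 4.77 and 2.84, from the peak that was also the strongest in the window of Hist2h3b. Of the 2 Hist3 genes, Hist3h2a had 4.30 and 2.35, while Hist3h2ba had a strict peak of 0.463 in replicate 2 alone and a permissive peak of 0.914 in replicate 1. In Hist1, 42 of 54 genes were open. In coordinate order, the first of its 3 blocks had 12 of 18 open, the second 5 of 5 and the third 25 of 31. Every gene of the first block that was not open lay in the duplicated sequence described below, so its lower share cannot be read as closed chromatin.

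**Figure D2:**
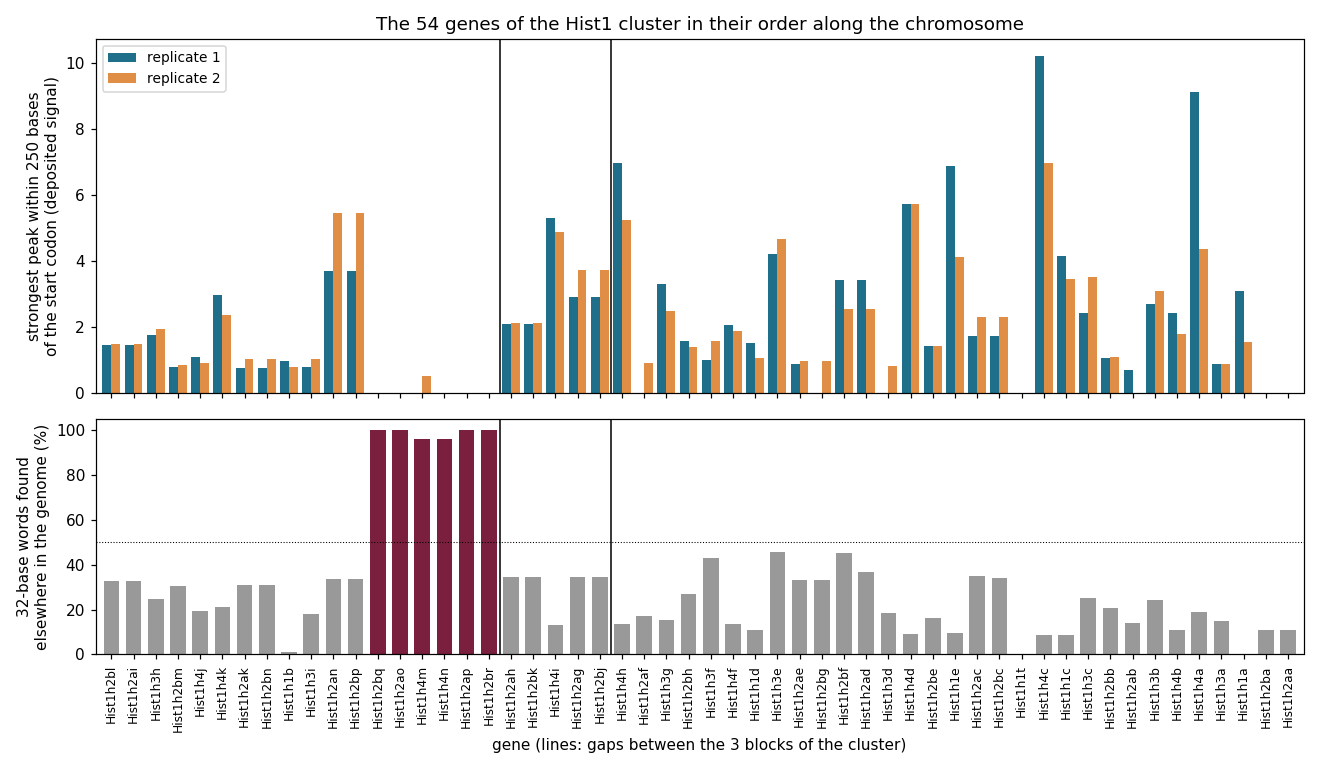
The 54 Hist1 genes in their order along chromosome 13. The upper bars give the strongest strict peak within 250 bases of the start codon in each library, and the lower bars the percentage of 32-base words in the 1 kb on either side of the start codon that occur elsewhere in the genome, dark where at least 50%. The 6 adjacent dark genes have 1 strict peak between them, in replicate 2 at Hist1h4m.

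Of the 10 members without a peak in either library, 6 lay in duplicated sequence. The share of 32-base words in the 2001 bases around the start codon that also occur elsewhere on the assembled chromosomes was at least 50% for 10 members and at most 45.5% for the other 57. The windows of Hist1h2ao and Hist1h2ap were identical over all 2001 bases, as were those of Hist1h2bq and Hist1h2br, and none of these 4 H2A and H2B genes had a peak. Hist1h4m and Hist1h4n shared 95.8% and 95.7% of their words, Hist2h3c1 77.2%, Hist2h3c2 70.2%, Hist2h2aa1 60.9% and Hist2h2aa2 60.7%. Of these 10 members 3 were open in both libraries, against 50 of the 57 others. In the permissive list the numbers were 4 of 10 and 53 of 57. The sources used here do not say how reads with several matches were placed, and closed chromatin and unplaced reads cannot be told apart at these 10 genes.

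Leaving aside the 10 members in duplicated sequence and the 3 testis variants, a choice made after their values were seen, 50 of 54 members were open in both libraries. Most of those left aside were not open, so this share was bound to rise and is not comparable with the 61.7% of all protein-coding genes. Of the 54, 1 was open in neither library by its annotated start, Hist1h1d, which had a peak of 1.52 and 1.07 around its start codon. The testis variants Hist1h1t, Hist1h2aa and Hist1h2ba had no strict peak in either library, and their words were shared at 0%, 10.7% and 10.7%. The deposited track of per-base false discovery rates (FDR), which lists bases under 0.05, had no base within 1 kb of a start of Hist1h2aa or Hist1h2ba in either library. It had 74 bases at Hist1h1t in replicate 1, with a lowest FDR of 0.0325, and none there in replicate 2. Hist1h2ao, Hist1h2ap, Hist1h2bq, Hist1h2br and Hist2h3c1 had no listed base in either library. By contrast Hist3h2ba had 178 and 393 listed bases, with a lowest FDR of 0.00149 and 0.000218, and Hist1h3d had 138 and 255, with 0.00488 and 2.01e-07.

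Peaks stood just upstream of the coding sequence. Within 1 kb of the start codon the centre of the nearest peak lay at a median of -80.5 bases in replicate 1 and -81.5 bases in replicate 2, where negative is upstream, against -130.5 and -135.5 bases for all genes with such a peak. It was upstream in 44 of 55 (80%) and 55 of 57 (96.5%) members with a peak there, against 80.9% and 82.0% of all genes, so the share in replicate 1 was that of all genes. In all, 63 and 71 distinct peaks lay in members' windows, with a median width of 180 and 200 bases. Of these, 22 and 23 lay in the windows of 2 or more members, so the members are not independent of each other, and 57 peaks of replicate 1 overlapped one of replicate 2.

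The 12 divergent pairs each joined an H2A gene with an H2B gene, with 278 to 334 bases (median 299) between the start codons. In 9 pairs a peak lay between the start codons in both libraries, and in 7 of these it was a single peak in each library. Pairs without a peak in either library were Hist1h2bq/Hist1h2ao, Hist1h2ap/Hist1h2br and the testis pair Hist1h2ba/Hist1h2aa. The signal of the pairs with a peak ran from 0.747 to 3.70 (median 2.09) in replicate 1 and from 0.973 to 5.46 (median 2.11) in replicate 2. The highest in both was Hist1h2an/Hist1h2bp, printed above, where 6 footprints with 84 bases and 4 footprints with 75 bases lay between the RefSeq starts. In the Hist1h2ah/Hist1h2bk stretch, with a peak of 2.09 and 2.11, 2 footprints covered 13 bases and 3 covered 20 bases. The stretch before Hist1h2ba held no footprint in either library.

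Footprints were found at most members. A footprint lay within 1 kb of a start in both libraries for 57 of 67 members (85.1%), against 64.4% of all protein-coding genes. The windows held 231 and 296 distinct footprints with a median length of 11 bases in either library, against 10 bases for all footprints. Open members had a median of 5 and 6 footprints, against 7 and 8 for all open genes. Footprints in the 250 bases before the start codon were longest at H4 genes, with a median of 20 and 15.5 bases, against 12 and 12 over all members.

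**Figure D3:**
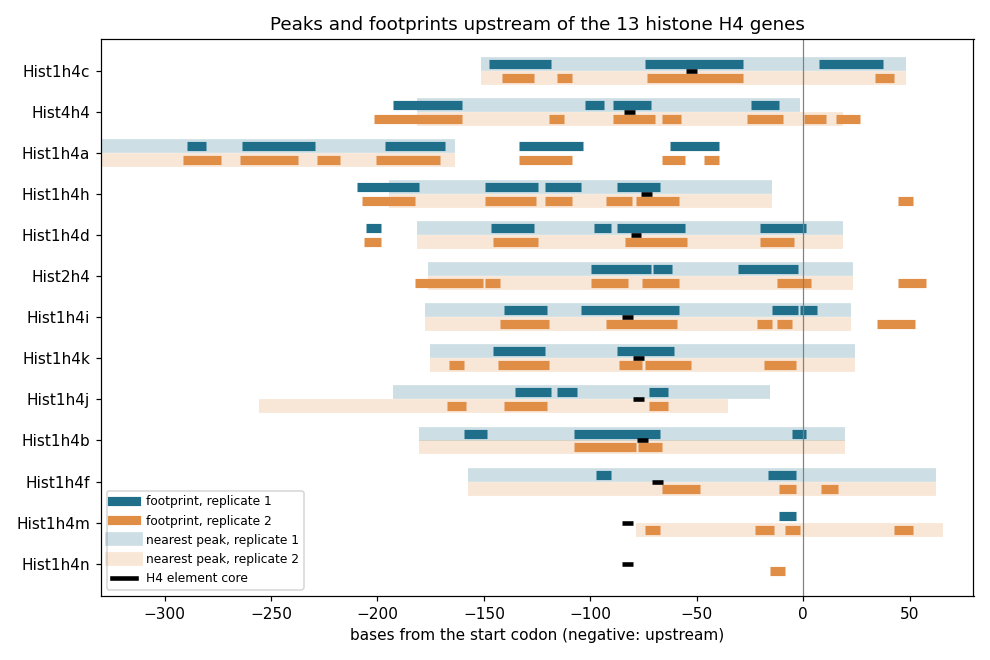
Nearest strict peak (pale bars), footprints (solid bars) and the GGTCCG core (black) at the 13 H4 genes, against distance from the start codon in bases, with replicate 1 above replicate 2 in each row. Genes run from the highest mean percentile at the top to the lowest at the bottom. In 7 genes a footprint of each library covers the core.

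The GGTCCG core lay at similar distances from the start codon in the H4 promoters. Within the RefSeq promoter entries, which run from 250 bases before to 50 bases after the start, 11 of 12 H4 genes held it upstream of the start codon, once each and on the coding strand. Its first base lay at -85 to -55 bases from the start codon, with a median of -80 bases. The gene without it was Hist1h4a. A footprint covered at least 50% of the core in both libraries in 7 of the 11 genes, namely Hist1h4b, Hist1h4c, Hist1h4d, Hist1h4h, Hist1h4i, Hist1h4k and Hist4h4. Those footprints were 46 and 45 bases long at Hist1h4c, 46 and 33 at Hist1h4i, 32 and 29 at Hist1h4d, and 18 and 20 at Hist4h4. In Hist1h4f, Hist1h4j, Hist1h4m and Hist1h4n no footprint covered it in either library. Hist1h4m and Hist1h4n are among the members in duplicated sequence, and their cores lay in no strict peak of either library. Hist1h4f had a signal of 2.06 and 1.88, and Hist1h4b, whose core was covered, had 2.41 and 1.78. Any part of the enzyme's own sequence preference in these footprints was not tested.

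In the 250 bases before the RefSeq start alone, with both strands searched, GGTCCG stood in 9 of 12 H4 promoters, against 8.41% of the 21263 promoters of all protein-coding RefSeq genes. Where such a match lay in peaks of both libraries, a footprint covered it in both in 5 of 7 H4 cases, against 22.3% of matches in all promoters. CCAAT stood in 82.5% of 63 member starts, against 35.4% of all promoters, with 100% of H1, H2A and H2B starts, 80% of H3 and 25% of H4. Most of these boxes were not under a footprint: 20 of the 84 matches in peaks of both libraries were covered in both, or 23.8%, against 27.1% in all promoters. Boxes that lay in the promoters of both partners of a divergent pair were counted for each partner. TATAAA stood in 46.0% of member starts, against 11.6%. The GC box GGGCGG was found in 31.7%, against 42.6%, and the E2F site, searched as TTTCCCGC or TTTGGCGC, in 1.59%, against 1.67%. Matches of different motifs overlapped 4 times. RefSeq entries were found for 62 members, without Hist2h2be, Hist2h4, Hist1h3f, Hist1h2bc and Hist1h3a.

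The octamer ATTTGCAT stood in 7 H2A and 7 H2B promoters and in none of the H1, H3 and H4 promoters, which is 22.2% of member starts, against 1.58% of all promoters. The 14 matches fell on 11 places, since partners of a pair share their DNA. Of the 14 matches, 2 lay in a peak in replicate 1 and 9 in replicate 2. None was under a footprint in replicate 1 and 1 was in replicate 2, in the promoter of Hist1h2ac. In all promoters 5.62% of the octamers in peaks of both libraries were under a footprint in both. The testis pair printed above holds an octamer, 4 CCAAT boxes and a TATA box in the stretch shown and had no peak. The cyclic AMP response element TGACGTCA was found in 4 member starts (6.35%, against 1.92%). All 4 matches in peaks of both libraries were under a footprint in both, against 88.1% in all promoters. The match shared by the partners Hist1h2ag and Hist1h2bj was counted for each of them. RefSeq entries of members had a median GC content of 45.3%, against 56.3%, and a CpG ratio (observed over expected) of 0.746, against 0.567. Within 250 bases on either side of the gene's 5′ end the median GC content was 53.7%, against 57.1% for all genes.

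The libraries differed in how strong the histone promoters were beside other promoters. The ratio of promoter signal, replicate 1 over replicate 2, had a median of 0.997 over the 53 open members, against 1.83 over 13512 open genes. It was below 1 in 28 of 53 members, against 4.83% of open genes, and below the median of all genes in 46 of 53. By type the median ratio was 0.988 for H2A, 0.979 for H2B, 0.950 for H3 and 1.10 for H4, and 1.84 for the 4 open H1 genes. At the strong end, Hist1h4c had a ratio of 1.47 and Hist4h4 of 0.794. Counted once each, the 57 peaks shared by the libraries had a median ratio of 1.14, with 26 below 1. With the strongest peak within 250 bases of the start codon the median was 1.05 over 52 members, against 1.80 over 7422 genes.

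The ratio was also set beside that of genes with similar signal or base composition. Among open genes under the 25th percentile of signal the median ratio was 0.980 for 17 members, against 1.67 for 3027 genes. From the 25th to the 50th it was 1.34 for 22 members, against 1.75 for 3474 genes, and from the 50th to the 75th 1.08 for 13 members, against 1.86 for 3641 genes. In promoters with 50 to 60% GC within 250 bases of the gene's 5′ end it was 0.995 for 36 members, against 1.75 for 4227 genes, and with 40 to 50% GC it was 0.966 for 10 members, against 1.69 for 1242 genes. In the 60 to 70% band it was 1.67 for 5 members, against 1.89 for 5562 genes, and the 1 member above 70%, Hist2h3c2, had 3.33, against 1.92 for 2245 genes. Genes of skeletal muscle mostly moved the other way, with a median ratio of 3.94 over 9 open genes, of which Actn3 had 9.59 and 5.13 (ratio 1.87), Ckm 12.1 and 3.36 (ratio 3.60) and Des 9.49 and 2.16 (ratio 4.39). The fibroblast genes had a median ratio of 1.60 over 3 genes, and the endothelial genes 1.12 over 2. The part of cell makeup, depth or library handling in the histone ratio was not tested, and with 1 library on each side it has no replicate check.

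**Figure D4:**
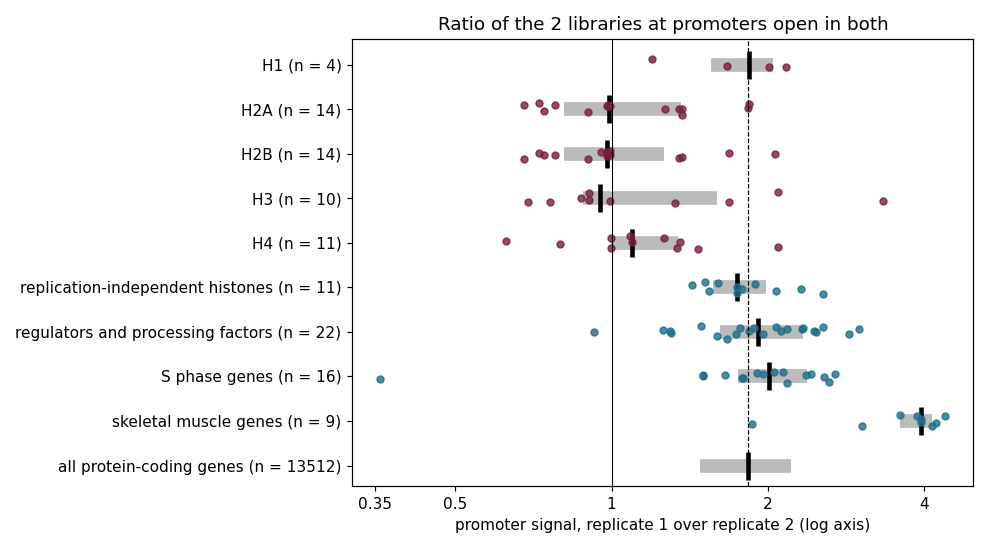
Ratio of promoter signal, replicate 1 over replicate 2, at genes open in both libraries (log axis). Points are genes, black ticks medians and grey bars the range from the 25th to the 75th percentile, the dashed line is the median of all genes (1.83), and n is the number of open genes. H2A, H2B, H3 and H4 genes lie mostly left of the dashed line, with medians from 0.950 to 1.10, and the 9 skeletal muscle genes to its right.

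Histone genes outside the clusters had stronger promoters. Of 13 histone genes listed here as replication-independent, most of which supply histones outside S phase, 11 were open in both libraries, against 61.7% of all protein-coding genes. Their median signal was 9.96 and 5.26, against 6.15 and 3.51 for all open genes. H2afv had 17.9 and 10.3, H2afz 17.4 and 6.79, and H2afx, the variant phosphorylated at DNA breaks, 12.8 and 7.33. The oocyte linker histone H1foo and the testis gene H2bfm had no peak. Their median library ratio was 1.75, close to that of all genes.

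A list of 22 genes held regulators and mRNA processing factors of the clustered histones, and the histone chaperone genes Nasp, Asf1a, Asf1b, Chaf1a and Chaf1b. All 22 were open in both libraries, against 61.7% of all protein-coding genes, with a median signal of 12.2 and 6.12. Npat had 19.6 and 9.01, Nfya, a subunit of NF-Y, 17.7 and 10.6, and Cpsf3, the endonuclease that cuts histone pre-mRNA, 15.7 and 9.85. All 16 genes of S phase and proliferation were open too, with a median of 10.3 and 5.14. Among them Ccne1, which encodes cyclin E1, had 17.6 and 9.88, Mcm5, a subunit of the replicative helicase, 14.5 and 8.74, and Ccna2, which encodes cyclin A2, 16.9 and 6.27. The median library ratio was 1.92 for the list of 22 genes and 2.01 for the S phase genes, against 0.997 for the clustered histone genes.

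Other protein-coding genes that lie between the members, all in Hist1, were mostly closed. Of 48 such genes 6 were open in both libraries (12.5%, against 61.7% of all protein-coding genes) and 41 in neither. Most of the 48 were vomeronasal receptor genes of the Vmn1r family, and none of that family had a strict peak in either library. All 6 open genes lay outside the family, where other genes, such as Btn1a1 and Trim38, had no peak. The low share thus mostly describes the receptor genes. The other genes were fewer and included both open and closed ones, and their share was not compared with that of all genes. The zinc finger gene Zfp322a had 10.7 and 5.21, Abt1, which encodes an activator of basal transcription, 6.49 and 5.85, and Zfp184 2.17 and 1.51. The vomeronasal receptor genes Vmn1r188 and Vmn1r189 had no peak in either library.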

How the data were processed

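DNase-seq of gastrocnemius from 14-day-old mice gave 2 libraries of 1 group, each with 2 peak lists, a footprint list and an FDR track on mm10. The peak signal is a value deposited by the authors for each library separately, and the sources used here do not give its scale. The FDR of each base and the constant footprint threshold of 0.01 are p-value type numbers deposited by the authors. Aligner, callers and read length: not given in the sources used here.

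Genes came from GENCODE M21, with 27 repeated symbols left out. A promoter reached 1 kb to each side of every annotated start, its signal that of the strongest overlapping peak, and a gene was open with a strict peak in both libraries. Percentiles were taken over all 21911 genes. Motifs were searched in RefSeq promoter sequences. The sequence is the C57BL/6J reference, and CAST alleles were not used here. Python 3.11.15, numpy 2.4.6 and scipy 1.17.1 were used, and interval and word counting were tested on simulated data. With 1 group no test between groups exists, so values are descriptions.

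The members and lists were chosen with earlier results of these data known. Genes were named by rule: per type the 3 highest open members and up to 2 closed ones, all of Hist2, Hist3 and Hist4, the testis variants, Hist1h1c and Hist1h2bc, members whose state differed between libraries or lists, and outside the clusters the 3 highest and up to 2 closed of each list. Other members shown in sequences, pairs or H4 footprints were chosen after their values were seen. Alternatives were other windows, lists, overlaps and single libraries.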

Additional observations from a re-analysis of the deposited data

How the results depend on the processing

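Of the recomputed values, 126 stayed within 1.5 times or 1 SD of the reported one and 7 did not. The median percentile of the members, 52.9, was 68.3 with the window around the start codon and 75.1 with 250 bases around it, both chosen after seeing the data, and 27.8 among open genes. Around the start codon 54 members and 9388 of all genes were open, against 53 and 13512 by annotated starts. Genes without a peak tie at the bottom of the ranking. The part of this in the first 2 shifts was not tested, and the last leaves out closed genes by construction. Hist3 had 2 of 2 genes open with the permissive list, against 1, and from 1 to 2 with either library left out. Counted in peak bases in place of the 250 bases before the start, the octamer was found at 9 members in place of 14 and the E2F site at 3 in place of 1. Read depth is unknown, so no counting interval can be given. No paired analysis was possible because there is 1 group.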
